A study of Mus musculus with 12 samples.

Results

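Axon guidance ligands and receptors were taken as the genes whose symbol names a semaphorin of class 3 to 7, a plexin, a neuropilin, a Slit, a Robo, an ephrin, an Eph receptor, a netrin, an Unc5 receptor or Dcc. The rule used symbols only and no measured value. It found 69 genes among the 55357 of the count table, 35 coding for ligands and 34 for receptors, and all 69 had counts in each of the 12 libraries. They comprised 7 class 3 semaphorins, 13 semaphorins of classes 4 to 7, 3 Slits, 4 netrins, 5 ephrin-As, 3 ephrin-Bs, 2 neuropilins, 9 plexins, 4 Robos, 4 Unc5 receptors with Dcc, 9 EphA receptors and 5 EphB receptors.

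The libraries were bulk mRNA libraries from mouse pups at postnatal day 5. The cKO mice (NcreEGFRFF, Nestin-EgfrF/F) carried 2 floxed alleles of Egfr, the epidermal growth factor receptor gene, and a Cre recombinase driven by Nestin, which is active in neural progenitors and so reaches the neurons and glia descended from them. The controls were given both as EgfrF/+ and as WT, and whether they carried Cre is not stated, so that loss of Egfr and presence of Cre cannot be told apart. Cortex with hippocampal formation was taken from each animal and divided into a caudal and a rostral piece, giving 4 groups of 3 libraries: caudal and rostral cKO (animals T3, T6 and T80) and caudal and rostral control (T4, T8 and T70). The comparisons asked how transcript levels differed between the pieces and between the genotypes. In such bulk tissue, fewer cells of a type and less RNA per cell cannot be told apart.

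Guidance cues steer growing axons and migrating neurons by attracting or repelling them. Secreted class 3 semaphorins signal through neuropilins paired with plexins, the membrane-bound semaphorins mostly through plexins alone, Slits through Robo receptors, netrins through Dcc and Unc5 receptors, and ephrins through Eph receptor tyrosine kinases. In the postnatal forebrain these families shape callosal, corticofugal and hippocampal projections, and graded ephrins and Ephs are known for marking position across cortical areas.

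Total counts ran from 43810458 to 87170315 per library, and the guidance genes held 0.447% to 0.557% of them. CPM values (counts relative to library size) are scaled by TMM over all 12 libraries. Egfr had 5.73 to 14.7 CPM in the 6 cKO libraries and 39.3 to 49.0 CPM in the 6 control libraries. The log2 fold change of Egfr, cKO over control, was -2.10 ± 0.11 on counts summed per animal (edgeR adjusted p = 0.0019). In single pieces it was -2.14 ± 0.25 in rostral and -2.05 ± 0.31 in caudal tissue and did not pass (edgeR adjusted p = 0.186 and 0.102). The dissected tissue had all 10 pan-neuronal and all 10 hippocampal markers above 0 in every group. Of the hippocampal markers, 2 averaged under 1 CPM in control rostral tissue and 1 in each other group. The 12 striatal markers summed to 174 to 254 CPM in cKO libraries and 187 to 489 CPM in control libraries. Mitochondrially encoded genes took 8.18% of counts in the rostral cKO library from T6 and 1.85% to 3.98% in the other 11. Its median absolute distance from the rest of its group was 0.309 on the log2 scale, against 0.0757 to 0.191 for the others. The rostral library of cKO animal T3 lay near the control caudal libraries, as described with the regional results. Without the rostral libraries of T3 and T6 only that of T80 is left in the cKO rostral group. For that setting effect sizes alone are given.

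Compared per exon length, as TPM (a length-scaled share of transcripts) computed from the counts and the exon lengths of the table, the guidance genes spanned a wide range. Efnb3, a transmembrane ephrin, had the highest level over the 12 libraries, with a mean of 207 TPM and a range of 87.0 to 293 TPM. Next came Sema7a, a lipid-anchored semaphorin, with a mean of 145 TPM, Plxna1, a plexin of the class 3 and class 6 semaphorins, with 130 TPM, and Epha4, an Eph receptor that binds ephrins of both classes, with 115 TPM. The order of these 4 differed between groups: in control rostral tissue Sema7a averaged 204 TPM and Efnb3 165 TPM, and in cKO rostral tissue Plxna1 averaged 114 TPM and Sema7a 98.2 TPM. The highest members of the other families were Ephb6 with a mean of 74.1 TPM, Robo2 with 63.6 TPM, Efna3 with 62.8 TPM, Slit1 with 35.8 TPM, Sema3c with 27.7 TPM, Nrp2 with 27.7 TPM, Unc5a with 26.9 TPM and Ntn3 with 8.11 TPM. The lowest levels were those of Epha1, with a mean of 0.069 TPM, and of Ntn5, with 0.27 TPM. Netrins thus stood lowest among the families in their best-represented member, and the ranges of Sema3c, Nrp2 and Unc5a overlapped across libraries.

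**Figure D1:**
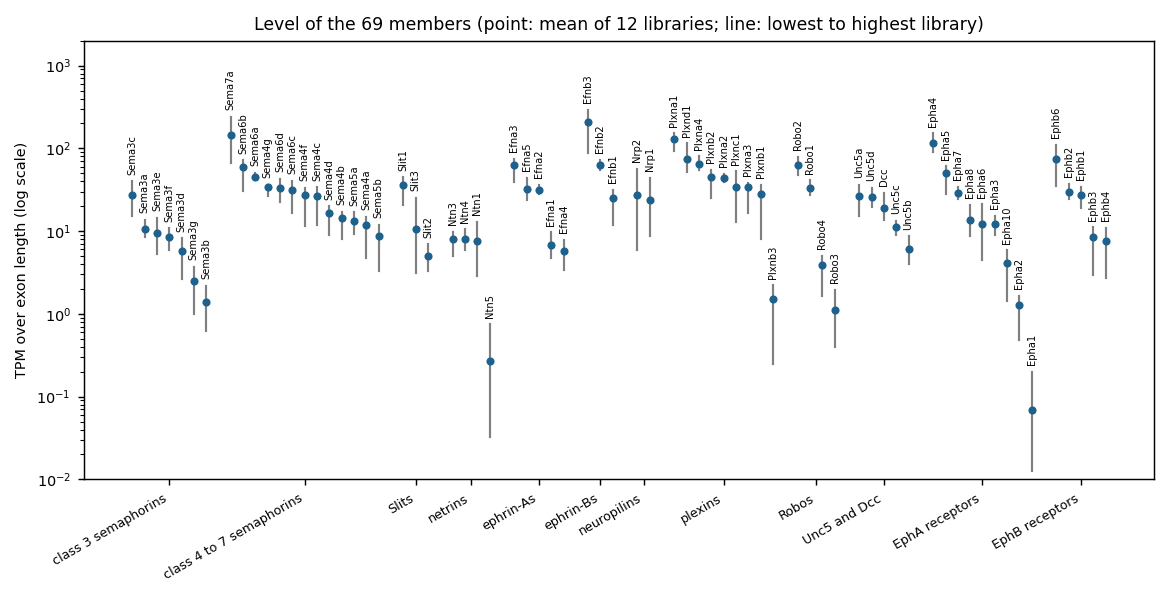
Level of each of the 69 guidance genes in TPM over exon length (log axis), grouped by family; points are means over 12 libraries and lines run from the lowest to the highest library. Over all libraries Efnb3 has the highest mean, 207 TPM, and Epha1 the lowest, 0.069 TPM; group means are not drawn.

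Between the control pieces, 23 of the 68 guidance genes tested differed (33.8%), 13 being higher and 10 lower in caudal tissue. Caudal tissue had more transcript of both neuropilins, of Slit3 and Slit2, of Efnb3 and Efnb1, and of the netrin receptors Unc5a and Dcc, and less of Ephb6, Ephb1, Robo2 and the plexins Plxna4 and Plxna2. Among all 20461 genes tested, 12.2% were called at an adjusted p under 0.05, 6.3% being higher and 5.88% lower in caudal tissue. The median absolute log2 fold change was 0.237 over the guidance genes and 0.133 over all genes. The caudal and rostral libraries did not overlap for 33 guidance genes (48.5%), against 31.3% of all genes. Epha1 was too low to be tested. All p-values adjusted here come from edgeR's quasi-likelihood test with Benjamini-Hochberg adjustment over all genes tested, log2 fold changes are given ± SE, and "called" means an adjusted p under 0.05. The SE was computed from the log2 fold change and the test statistic. It rests on the spread between the 3 samples of a group, estimated with information from all genes. Without an animal block, the regional fits take the pieces of an animal as independent.

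**Figure D2:**
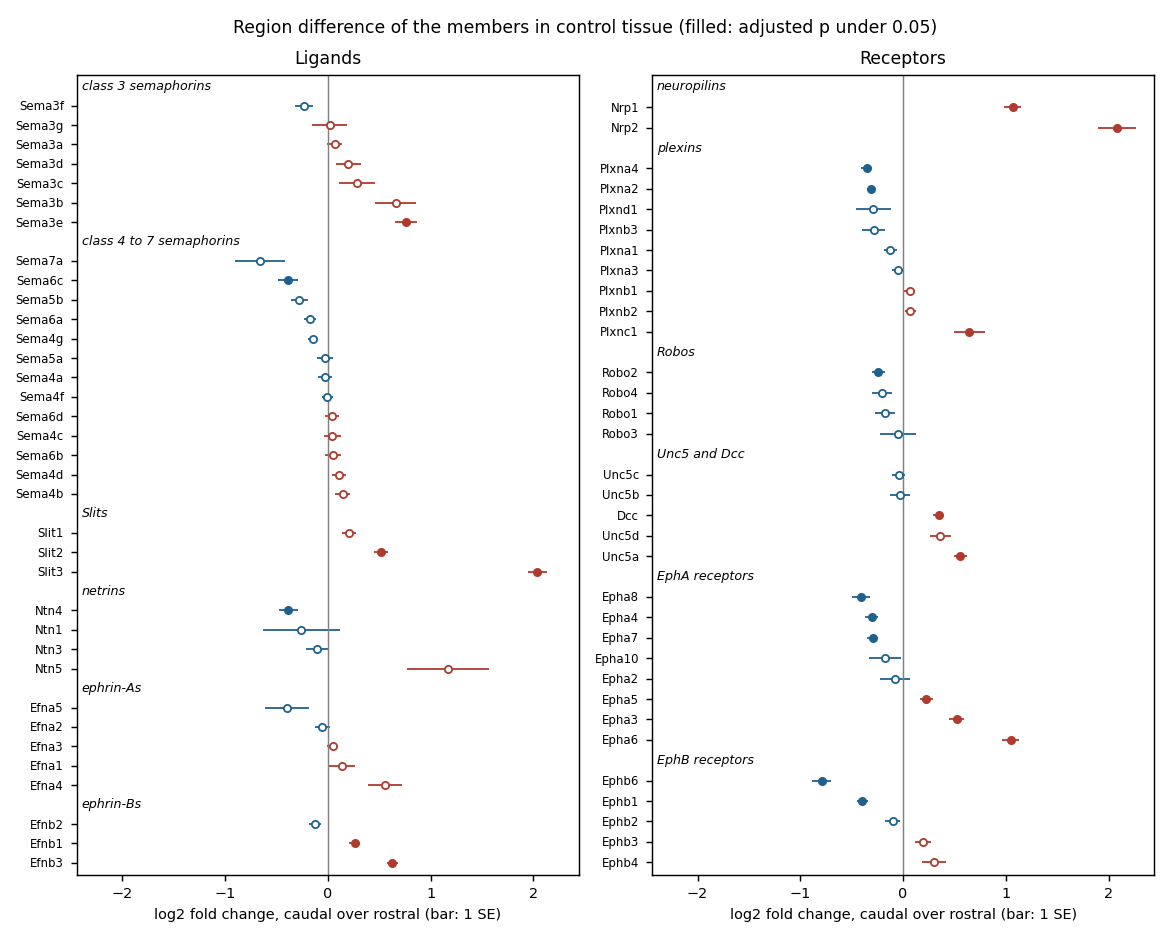
Log2 fold change of 68 guidance genes between control pieces, caudal over rostral, with bars of 1 SE; ligands left, receptors right, grouped by family, red above 0 and blue below, filled symbols at an adjusted p under 0.05. Nrp2 (2.08) and Slit3 (2.04) lie farthest to the right and Ephb6 (-0.79) farthest to the left.

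The Slits, secreted repellents of Robo-bearing axons, were all higher in value in caudal control tissue, and 2 of 3 were called. Slit3 had 31.4, 27.0 and 25.5 CPM in the control caudal libraries of T4, T8 and T70, against 7.25, 6.26 and 6.85 CPM in their rostral libraries. The groups lay far apart, with a log2 fold change of 2.04 ± 0.095 (edgeR adjusted p = 4.39e-06). Slit2 had 46.7, 42.7 and 43.3 CPM in caudal and 32.7, 27.9 and 31.9 CPM in rostral libraries, again without overlap, a log2 fold change of 0.52 ± 0.070 (edgeR adjusted p = 0.000989). Slit1 did not pass, at 0.21 ± 0.066 (edgeR adjusted p = 0.0706). The 4 Robo receptors ranged from -0.24 to -0.050 on the log2 scale. Only Robo2 among them was called, with 328, 321 and 319 CPM in caudal and 419.9, 369 and 349 CPM in rostral libraries and a log2 fold change of -0.24 ± 0.066 (edgeR adjusted p = 0.0386). That call was lost with any control animal left out, the edgeR adjusted p being 0.0897 without T4, 0.177 without T8 and 0.0617 without T70. Robo1, the other main cortical Robo, stood at -0.18 ± 0.10 (edgeR adjusted p = 0.318), but at -0.36 without T4, where it was called (edgeR adjusted p = 0.0119).

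Both neuropilins, the ligand-binding co-receptors of class 3 semaphorins, were higher in caudal control tissue. Nrp2 had 159.7, 146 and 133 CPM in the caudal libraries of T4, T8 and T70 and 43.4, 27.5 and 32.4 CPM in their rostral libraries. Its log2 fold change was 2.08 ± 0.18 (edgeR adjusted p = 0.00184), and the adjusted p was 0.0524 without T70. Nrp1 had 77.9, 90.6 and 83.4 CPM in caudal and 35.4, 42.9 and 41.5 CPM in rostral libraries, a log2 fold change of 1.07 ± 0.079 (edgeR adjusted p = 3.57e-05). In each of the 3 animals the caudal library exceeded the rostral one for both genes.

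Among the 7 class 3 semaphorins only Sema3e, a repellent that can bind Plxnd1 directly, was called in control tissue without an animal block. It had 26.1, 32.9 and 29.6 CPM in caudal and 19.9, 16.6 and 15.7 CPM in rostral libraries, a log2 fold change of 0.76 ± 0.11 (edgeR adjusted p = 0.00203). The remaining 6 lay between -0.23 for Sema3f and 0.66 for Sema3b, which had non-overlapping groups but an edgeR adjusted p of 0.0579. With the animal as a block, Sema3b, Sema3c and Sema3f were also called (edgeR adjusted p = 0.0106, 0.0081 and 0.0426). Of 13 semaphorins of classes 4 to 7, Sema6c, a transmembrane protein, was called, with 50.3, 57.0 and 57.5 CPM in caudal and 73.7, 79.6 and 61.4 CPM in rostral libraries and a log2 fold change of -0.39 ± 0.095 (edgeR adjusted p = 0.0297). Its edgeR adjusted p was 0.192 without T4 and 0.124 without T8. Sema5b, at -0.28 ± 0.084 (edgeR adjusted p = 0.0576), passed with the animal as a block (edgeR adjusted p = 0.0289). Sema7a varied among animals, with 107, 143 and 161 CPM in caudal and 249, 238 and 161 CPM in rostral libraries, and the groups overlapped; its log2 fold change of -0.66 ± 0.24 did not pass (edgeR adjusted p = 0.178), but was -0.97 without T70 and then passed (edgeR adjusted p = 0.0278).

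The plexins, which carry the semaphorin signal into the cell, moved in both directions between control pieces. Plxnc1, the plexin of Sema7a, was higher in caudal tissue, with 134, 106 and 98.4 CPM against 68.5, 63.4 and 83.7 CPM in rostral libraries and a log2 fold change of 0.64 ± 0.15 (edgeR adjusted p = 0.0396). This call was lost without T4 (edgeR adjusted p = 0.0886) and without T8 (edgeR adjusted p = 0.184). Plxna4 and Plxna2, which bind class 6 semaphorins and serve as signalling partners of neuropilins, were lower. Plxna4 had 244, 239 and 245 CPM in caudal and 311, 327 and 289.9 CPM in rostral libraries, at -0.36 ± 0.053 on the log2 scale (edgeR adjusted p = 0.0017). Plxna2 had 216, 206 and 204 CPM and 265, 256 and 252 CPM in those pieces, at -0.31 ± 0.047 (edgeR adjusted p = 0.00193). The other 6 plexins, Plxna1 among them at -0.12 ± 0.062, did not pass without an animal block. Of these, Plxnd1, at -0.29 ± 0.17 (edgeR adjusted p = 0.354), passed with the animal as a block (edgeR adjusted p = 0.00691).

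In the netrin system, the receptors Unc5a and Dcc were called higher and 1 ligand, Ntn4, lower in caudal control tissue. Ntn5, a netrin of very low level, stood the other way from Ntn4 without passing. Its log2 fold change was 1.17 ± 0.40, with groups that did not overlap (edgeR adjusted p = 0.0886). Unc5a, a receptor for netrin repulsion, had 42.4 ± 2.63 CPM in caudal and 28.8 ± 1.32 CPM in rostral control libraries (mean ± SD, 3 libraries each, without overlap), with a log2 fold change of 0.55 ± 0.064 (edgeR adjusted p = 0.000369). Dcc, the receptor for netrin attraction, had 81.5, 86.3 and 77.5 CPM in caudal and 62.5, 63.6 and 66.1 CPM in rostral libraries, with 0.35 ± 0.055 (edgeR adjusted p = 0.00245, and 0.0544 without T8). Ntn4, a netrin of basement membranes, had 8.69 ± 0.540 CPM in caudal and 11.3 ± 0.940 CPM in rostral libraries (mean ± SD, without overlap), with -0.38 ± 0.090 (edgeR adjusted p = 0.019, but 0.137 without T4 and 0.103 without T8). Ntn1, the founding attractant of the family, did not pass, at -0.26 ± 0.37 (edgeR adjusted p = 0.738), its libraries ranging from 12.9 to 24.7 CPM in caudal and from 14.2 to 25.6 CPM in rostral tissue. Unc5d stood at 0.36 ± 0.10 (edgeR adjusted p = 0.0557, and 0.00122 with the animal as a block), and Unc5b and Unc5c lay at -0.034 and -0.044.

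Of the 3 ephrin-Bs, 2 were called, both higher in caudal control tissue. Efnb3 had 281, 254 and 248 CPM in caudal and 166, 168 and 170.3 CPM in rostral control libraries, the caudal libraries all lying above the rostral ones, and a log2 fold change of 0.63 ± 0.055 (edgeR adjusted p = 7.09e-05). Efnb1 had 29.3, 30.3 and 29.0 CPM in caudal and 24.4, 24.9 and 24.5 CPM in rostral libraries, with 0.26 ± 0.052 (edgeR adjusted p = 0.00922, but 0.0682 without T4 and 0.148 without T8). No ephrin-A was called; the nearest was Efna4 with 0.56 ± 0.17 (edgeR adjusted p = 0.055), which passed with the animal as a block (adjusted p = 0.0145).

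Of the 8 EphA receptors tested, which mostly bind ephrin-As, 3 were called higher and 3 called lower in caudal control tissue. By value 3 were higher and 5 lower. Epha6 had 27.4, 25.6 and 23.1 CPM in caudal and 11.8, 11.6 and 13.3 CPM in rostral libraries, a log2 fold change of 1.05 ± 0.082 (edgeR adjusted p = 3.57e-05). Epha3 followed at 0.52 ± 0.072 (edgeR adjusted p = 0.00107), and Epha5 at 0.23 ± 0.060 (edgeR adjusted p = 0.033, but 0.187 without T4 and 0.3 without T8). Called lower were Epha8 at -0.41 ± 0.089 (edgeR adjusted p = 0.0143, and 0.0778 without T8) and Epha7 at -0.30 ± 0.052 (edgeR adjusted p = 0.00424). So was Epha4 at -0.31 ± 0.065 (edgeR adjusted p = 0.0124, and 0.0547 without T70). Among EphB receptors, Ephb6, whose kinase domain is inactive, had 63.7, 74.2 and 82.0 CPM in caudal and 125, 137 and 118 CPM in rostral libraries. Its log2 fold change of -0.79 ± 0.092 was the most negative of all guidance genes tested (edgeR adjusted p = 0.000801). Ephb4, at 0.30 ± 0.12 (edgeR adjusted p = 0.141), passed with the animal as a block (edgeR adjusted p = 0.0206). Ephb1, a receptor of ephrin-Bs, had 56.1, 54.9 and 55.7 CPM in caudal and 75.9, 72.2 and 70.3 CPM in rostral libraries, with -0.40 ± 0.051 (edgeR adjusted p = 0.000793).

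Of the 23 calls, 13 held with each control animal left out in turn: Slit3, Slit2, Nrp1, Sema3e, Efnb3, Unc5a, Epha6, Epha3, Epha7, Ephb6, Ephb1, Plxna4 and Plxna2. Called genes shared at most 1.38% of their exon bases with another gene on the same strand and 2.02% with one on the opposite strand.

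Promoters are shown for the 5 called genes with the largest absolute difference between control pieces, so that the sequence upstream of genes that moved in either direction can be read side by side. Each is the 250 bases before the transcript start in the RefSeq annotation of GRCm38.p6, a build other than that of the count table (GRCm39), written along the strand of the gene. Capitals mark matches on either strand to 4 motifs, each searched as written and as its reverse complement. They are GGGCGG, known as the Sp1-family box and called GC box below, AGGTCA, known from nuclear receptors, CCGGAA, known from the ETS family, and TAATTA, known from homeodomain proteins. Neighbouring GC boxes can overlap. The regions are chr11:35121206-35121455 (+) for Slit3, chr1:62703067-62703316 (+) for Nrp2, chr8:128358823-128359072 (+) for Nrp1, chr16:60605532-60605781 (-) for Epha6 and chr6:41605261-41605510 (+) for Ephb6, each directly upstream of the first exon.
Slit3: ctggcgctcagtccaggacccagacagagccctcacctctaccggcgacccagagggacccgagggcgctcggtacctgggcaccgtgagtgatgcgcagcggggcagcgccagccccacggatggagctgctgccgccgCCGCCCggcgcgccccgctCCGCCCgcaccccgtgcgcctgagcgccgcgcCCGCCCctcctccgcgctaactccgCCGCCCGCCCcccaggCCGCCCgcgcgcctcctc
Nrp2: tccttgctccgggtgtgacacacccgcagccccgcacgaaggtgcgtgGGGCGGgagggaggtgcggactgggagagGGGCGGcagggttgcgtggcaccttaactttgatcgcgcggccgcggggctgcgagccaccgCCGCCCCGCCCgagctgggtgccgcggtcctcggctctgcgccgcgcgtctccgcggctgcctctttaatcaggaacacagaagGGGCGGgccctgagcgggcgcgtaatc
Nrp1: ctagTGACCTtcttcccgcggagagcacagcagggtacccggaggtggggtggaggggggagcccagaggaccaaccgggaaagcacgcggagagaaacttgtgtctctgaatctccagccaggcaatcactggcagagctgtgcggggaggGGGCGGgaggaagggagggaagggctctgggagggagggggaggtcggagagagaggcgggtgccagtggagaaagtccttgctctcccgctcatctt
Epha6: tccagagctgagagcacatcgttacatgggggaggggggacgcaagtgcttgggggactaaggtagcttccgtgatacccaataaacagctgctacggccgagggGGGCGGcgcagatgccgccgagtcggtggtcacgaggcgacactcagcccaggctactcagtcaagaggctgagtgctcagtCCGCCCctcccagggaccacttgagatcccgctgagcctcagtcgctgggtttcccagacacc
Ephb6: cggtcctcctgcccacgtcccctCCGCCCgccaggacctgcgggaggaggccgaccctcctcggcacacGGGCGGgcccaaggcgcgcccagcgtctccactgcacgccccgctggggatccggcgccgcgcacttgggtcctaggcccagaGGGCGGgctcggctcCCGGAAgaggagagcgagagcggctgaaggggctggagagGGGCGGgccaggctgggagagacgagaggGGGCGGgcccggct

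These windows held 6, 5, 1, 2 and 5 GC boxes in the order shown, and 35, 32, 11, 15 and 27 CpG dinucleotides, against a median of 6 CpGs over 32851 promoter windows of that length. Nrp1 held an AGGTCA match and Ephb6 a CCGGAA match. Promoter windows were matched for 20 of the 23 called genes, 11 higher and 9 lower in caudal control tissue. A GC box was present in 9 of the 11 and 7 of the 9, and in 32.7% of all windows. AGGTCA was present in 1 of the 11 and 1 of the 9 (14.0% of all windows), TAATTA in 1 and 0 (4.8%), and CCGGAA in 0 and 1 (12%). A called gene was counted where any of its windows held the motif, while the percentages are over single windows. The 2 kinds of number are therefore not directly comparable. Windows on chromosome 18, which holds Dcc, were left out throughout. A match is a run of letters in the window and says nothing about binding.

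Other genes of the guidance pathways were counted from lists chosen with earlier results of these data known. Of 30 co-receptors and further cues, 6 were called higher and 7 called lower in caudal control tissue, against 12.2% of all genes called. By value 16 were higher and 14 lower. Ntng1, a lipid-anchored netrin G, was higher by 1.44 ± 0.15 (edgeR adjusted p = 0.00078) and Lrrc4c, the receptor of netrin G1, was lower at -0.36 ± 0.048 (edgeR adjusted p = 0.000929). Draxin, a secreted cue that binds Dcc, was at 0.73 ± 0.074 (edgeR adjusted p = 0.000193), and Ptch1, the Hedgehog receptor, at -0.51 ± 0.078 (edgeR adjusted p = 0.00218). Of 45 intracellular transducers, 1 was called higher and 8 were called lower, while by value 11 were higher and 34 lower. Dpysl4, of the collapsin response mediator family, was the 1 called higher, at 0.42 ± 0.058 (edgeR adjusted p = 0.00107). Trim67, a Dcc-binding ligase, was at -0.43 ± 0.070 (edgeR adjusted p = 0.00298) and Ablim1, an actin-binding protein, at -0.38 ± 0.055 (edgeR adjusted p = 0.00131).

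Other gene lists moved with the same comparison. Of 10 hippocampal markers, 9 were called higher in caudal control tissue, where they summed to 420 to 505 CPM, against 257 to 281 CPM in rostral libraries. Of 8 choroid plexus markers tested, 4 were called higher; the 9 listed summed to 13.3 to 221 CPM in caudal and 6.78 to 7.7 CPM in rostral libraries. Among oligodendrocyte lineage markers 5 of 10 were called lower, with 479 to 538 CPM in caudal and 572 to 612 CPM in rostral libraries. Mitochondrially encoded genes were called lower in 11 of 13, with 15297 to 19578 CPM and 22761 to 31819 CPM in those groups. Of 12 striatal markers 2 were called lower, with 187 to 332 CPM in caudal and 222 to 489 CPM in rostral libraries. Of 10 meningeal fibroblast markers 0 were called, with 533 to 683 CPM in caudal and 206 to 456 CPM in rostral libraries. Among lists of 10, astrocyte markers had 1 called higher and 2 lower, pan-neuronal markers 1 and 1, endothelial markers 0 and 1, and microglia markers 0 and 0. No gene of these lists was at 0 in a whole group, but 5 of the 9 choroid plexus markers averaged under 1 CPM in control rostral tissue. The part of these lists in the regional differences of the guidance genes was not tested.

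Between the cKO pieces, 0 of 68 guidance genes tested were called by edgeR and 0 by DESeq2. By edgeR, 3 had an unadjusted p under 0.05: Sema3c, Sema3e and Robo3. Such an unadjusted p was seen in 1.66% of all genes and 4.41% of guidance genes. Among all genes, 0% were called and 5.72% had groups that did not overlap, as had 3 guidance genes (4.41%). Sema3e had 37.7, 43.5 and 38.1 CPM in the cKO caudal libraries of T3, T6 and T80 and 32.3, 29.1 and 17.6 CPM in their rostral libraries, a log2 fold change of 0.60 ± 0.23 (edgeR adjusted p = 1). Sema3c, a class 3 semaphorin, had 70.5, 86.4 and 83.2 CPM in cKO caudal and 59.5, 48.4 and 51.9 CPM in cKO rostral libraries, with 0.59 ± 0.13 (edgeR adjusted p = 1). In both genes every cKO caudal library lay above every cKO rostral one. Efnb2, a transmembrane ephrin, was the third without overlap, at -0.37 ± 0.18.

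The 3 cKO animals differed in the size and direction of the regional difference. Nrp2 had 87.7, 218 and 110.1 CPM in the cKO caudal libraries of T3, T6 and T80 and 159.6, 31.7 and 77.0 CPM in their rostral libraries. The rostral piece was thus higher in T3 and the caudal piece higher in T6 and T80. Slit3 had 17.3, 49.8 and 21.7 CPM in caudal and 28.1, 8.92 and 15.1 CPM in rostral cKO libraries, again higher rostrally in T3 and caudally in T6 and T80. Of the 23 genes called in control tissue, the difference ran in the control direction for 22 in T6, 9 in T80 and 7 in T3, with Sema3e the 1 gene to do so in all 3 cKO animals. The other 2469 genes called in control tissue had that direction in 89% of cases in T6, 59.3% in T80 and 37.1% in T3.

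**Figure D3:**
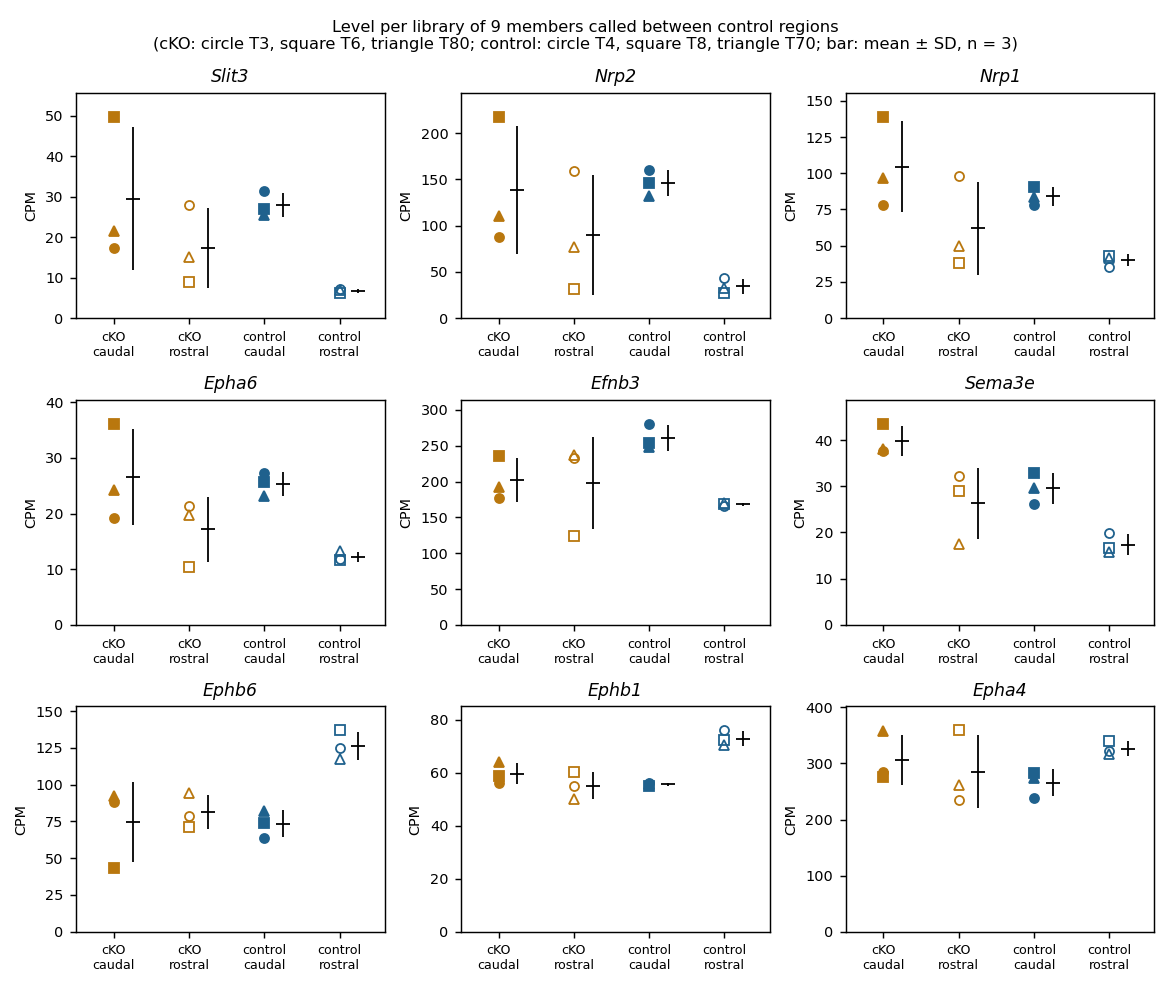
CPM per library of 9 guidance genes called between control pieces, with groups in the order cKO caudal, cKO rostral, control caudal and control rostral; symbols mark animals, bars give the mean ± SD of 3 libraries, and axes start at 0. Control pieces separate in every panel, which follows from choosing genes called between them. The 9 genes are a selection from those called and follow no stated rule. The cKO pieces overlap in all but Sema3e.

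Each library was also placed on a line that runs from 0, the control rostral mean, to 1, the control caudal mean, over genes called between control pieces. Over the 23 guidance genes, the cKO caudal libraries of T3, T6 and T80 stood at 0.685, 1.39 and 0.793 and their rostral libraries at 1.02, 0.0872 and 0.579. Over the 2469 other genes the positions were 0.559, 1.19 and 0.801 in cKO caudal and 0.856, -0.0738 and 0.642 in cKO rostral libraries. By both sets of genes the cKO caudal library of T6 stood highest and the cKO rostral library of T6 lowest of the 6 cKO libraries, and in T3 the rostral library lay on the caudal side of the caudal one. In all lists of markers and in the other guidance lists, 0 genes were called between cKO pieces. In the cKO rostral libraries of T3, T6 and T80, hippocampal markers summed to 603, 302 and 291 CPM and choroid plexus markers to 401, 4.81 and 16 CPM. The part of dissection, tissue makeup or genotype in these positions was not tested.

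**Figure D4:**
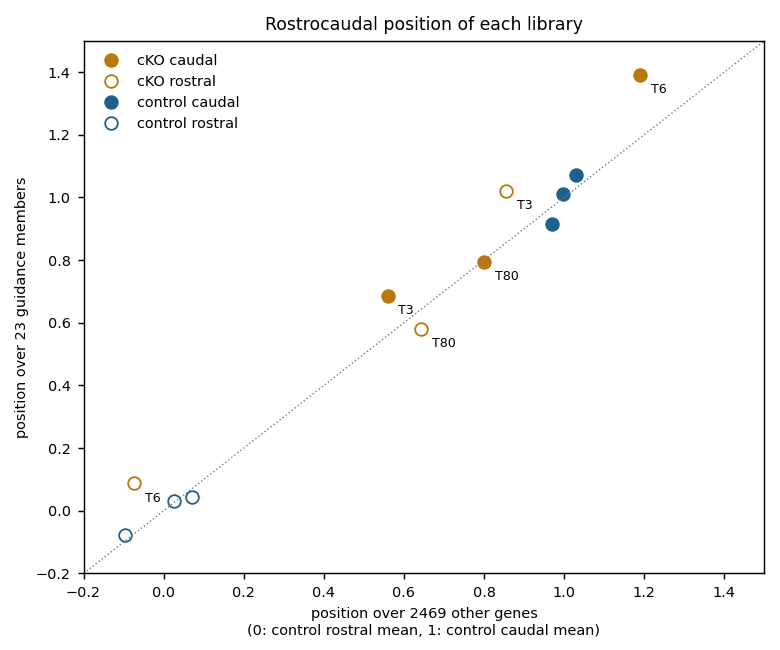
Position of each of the 12 libraries between the control rostral mean (0) and the control caudal mean (1), over 2469 non-guidance genes (x axis) and 23 guidance genes (y axis); filled symbols are caudal, open ones rostral, and cKO animals are named. The cKO rostral library of T3 stands at 1.02 on the guidance axis, beside the control caudal libraries, and that of T6 at 0.0872.

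A difference of 1 sign, caudal minus rostral, was seen in all 6 animals for 7 of 68 guidance genes (10.3%), against 7.87% of all genes. Sema3e, Sema3c and Efna4 were higher in caudal tissue and Efnb2, Plxnd1, Sema4g and Sema6a lower. Sema3c, for example, differed by 0.24, 0.83 and 0.68 in T3, T6 and T80 and by 0.21, 0.40 and 0.24 in T4, T8 and T70 on the log2 scale.

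The interaction, the regional difference in cKO minus that in control tissue, called 0 of 68 guidance genes by edgeR and 0 by DESeq2. By edgeR 0% of all genes were called. Against 3.55% of all genes, 5 guidance genes (7.35%) had an unadjusted edgeR p under 0.05. The smallest was that of Ephb1, whose caudal libraries had 56.0, 58.9 and 63.9 CPM in cKO tissue and 56.1, 54.9 and 55.7 CPM in control tissue, and whose rostral libraries had 54.9, 60.3 and 50.2 CPM in cKO tissue and 75.9, 72.2 and 70.3 CPM in control tissue. Its interaction was 0.51 ± 0.11 (edgeR adjusted p = 1). Without T6 the edgeR count was 9 (2.17% of all genes). Of these, Efnb3, Epha6, Plxnc1, Slit1, Slit3 and Unc5a were below 0 and Epha4, Ephb1 and Ephb6 above 0. Without the cKO rostral libraries of T3 and T6, which leaves only that of T80, the interaction of Ephb1 was 0.67.

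Between genotypes, edgeR called 0 guidance genes in either piece or on the animal sums, while DESeq2 called some in each. In rostral tissue, 0 of 67 were called by edgeR (0% of all genes) and 4 by DESeq2 (0.946% of all genes), and 15 (22.4%) had an unadjusted p under 0.05 against 9.49% of all genes. The cKO and control rostral libraries did not overlap for 19 (28.4%), 6 higher and 13 lower in cKO, against 19.7% of all genes. Slit3 had 28.1, 8.92 and 15.1 CPM in cKO rostral libraries and 7.25, 6.26 and 6.85 CPM in control rostral libraries, with a log2 fold change of 1.36 ± 0.39 (edgeR adjusted p = 0.409, DESeq2 0.0208). Ephb6 had 78.8, 71.5 and 94.4 CPM in cKO and 125, 137 and 118 CPM in control rostral libraries, with -0.63 ± 0.13 (edgeR adjusted p = 0.318, DESeq2 0.00623). Epha8 had 16.6, 18.1 and 18.2 CPM in cKO and 30.8, 25.4 and 24.4 CPM in control rostral libraries, with -0.60 ± 0.12 (edgeR adjusted p = 0.312, DESeq2 0.00728). Sema7a had 112, 142 and 98.0 CPM in cKO and 249, 238 and 161 CPM in control rostral libraries, with -0.88 ± 0.21 (edgeR adjusted p = 0.339, DESeq2 0.0126). Slit3 was higher and the other 3 were lower in cKO rostral tissue. This comparison and the one between control pieces share the control rostral libraries.

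The count in rostral tissue changed most with T6. Without T6, edgeR called 13 guidance genes, 8 higher and 5 lower in cKO, and 5.01% of all genes. Without the cKO rostral libraries of both T3 and T6, only the library of T80 is left in the cKO group and the spread comes from the controls. Effect sizes alone are therefore given for that setting. Slit3 was at 1.68 without T6 (edgeR adjusted p = 0.0281) and at 1.15 without both. Ephb6 was at -0.54 without T6 (edgeR adjusted p = 0.0216) and at -0.42 without both. Epha8 was at -0.61 without T6 (edgeR adjusted p = 0.0264) and at -0.56 without both. Sema7a was at -1.03 without T6 (edgeR adjusted p = 0.0651) and at -1.14 without both.

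In caudal tissue, 0 of 68 guidance genes were called by edgeR, against 0.0821% of all genes, and 2 by DESeq2, against 1.2%; 17 (25%) had an unadjusted p under 0.05 against 14.5% of all genes. Groups did not overlap for 17 (25%), 5 higher and 12 lower in cKO, against 23% of all genes. Sema3e had 37.7, 43.5 and 38.1 CPM in cKO caudal libraries and 26.1, 32.9 and 29.6 CPM in control caudal libraries, with a log2 fold change of 0.44 ± 0.10 (edgeR adjusted p = 0.167, DESeq2 0.0194). Plxnb3, a plexin known from oligodendrocytes, had 2.42, 2.26 and 2.32 CPM in cKO and 3.64, 3.98 and 3.30 CPM in control caudal libraries, with -0.63 ± 0.14 (edgeR adjusted p = 0.155, DESeq2 0.0115). Without T6, Efnb3 was called at -0.49 (edgeR adjusted p = 0.0334). The value of Slit3 was 0.088 ± 0.40 with all animals and -0.52 without T6, its cKO caudal libraries having 17.3, 49.8 and 21.7 CPM in T3, T6 and T80 and its control caudal libraries 31.4, 27.0 and 25.5 CPM.

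Counts were also summed over both pieces of each animal. On these sums 0 of 69 guidance genes were called by edgeR, against 0.179% of all genes, and 8 by DESeq2, against 1.74%. Limma, fitted to single libraries with those of an animal taken as correlated, called none. By edgeR 20 (29%) had an unadjusted p under 0.05 against 15.4% of all genes. The animals did not overlap between genotypes for 24 (34.8%), 8 higher and 16 lower in cKO, against 26% of all genes. Semaphorins of classes 4 to 7 held 6 of the 16 lower ones.

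Among ligands, Sema5b, a transmembrane semaphorin, had 16.6, 13.7 and 17.3 CPM in cKO animals T3, T6 and T80 and 24.0, 21.3 and 23.0 CPM in control animals T4, T8 and T70. Its log2 fold change was -0.52 ± 0.10, the smallest p of the guidance genes (edgeR adjusted p = 0.119, DESeq2 0.00108). Sema3e had 34.6, 35.1 and 28.4 CPM in cKO and 23.7, 24.9 and 22.8 CPM in control animals, with 0.47 ± 0.097 (edgeR adjusted p = 0.133, DESeq2 0.00665). Efna1, a lipid-anchored ephrin, had 5.02, 4.17 and 4.57 CPM in cKO and 3.54, 3.40 and 3.09 CPM in control animals, with 0.46 ± 0.12 (edgeR adjusted p = 0.188, DESeq2 0.0188). Ntn1 had 12.2, 9.15 and 11.8 CPM in cKO and 25.2, 14.0 and 17.3 CPM in control animals, with -0.76 ± 0.21 (edgeR adjusted p = 0.212, DESeq2 0.0149). Sema7a had 128, 105 and 144 CPM in cKO and 164, 190.5 and 161 CPM in control animals, with -0.44 ± 0.12 (edgeR adjusted p = 0.201, DESeq2 0.034). The animals of the genotypes did not overlap for these 5 ligands. Efnb2 stood at 0.26 ± 0.096 and Slit3 at 0.37 ± 0.17 (edgeR adjusted p = 0.286 and 0.354).

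Among receptors, Nrp1 had 91.2, 84.5 and 74.6 CPM in cKO and 61.4, 67.3 and 62.8 CPM in control animals, with a log2 fold change of 0.39 ± 0.086 (edgeR adjusted p = 0.143, DESeq2 0.0154). Epha8 had 16.1, 15.6 and 19.8 CPM in cKO and 25.0, 22.3 and 22.6 CPM in control animals, with -0.43 ± 0.11 (edgeR adjusted p = 0.182, DESeq2 0.0173). Plxnb1, a receptor of class 4 semaphorins, had 78.8, 58.6 and 83.0 CPM in cKO and 100.2, 95.9 and 96.4 CPM in control animals, with -0.40 ± 0.12 (edgeR adjusted p = 0.234). Plxnb3 ranged from 1.42 to 3.24 CPM in cKO and from 3.92 to 4.11 CPM in control animals, with -0.89 ± 0.28 (edgeR adjusted p = 0.239, DESeq2 0.0281). The animals did not overlap for these 4 receptors either. Ephb3, an ephrin-B receptor, stood at -0.40 ± 0.14, Robo4, a Robo of endothelial cells, at -0.29 ± 0.11, and Dcc at 0.27 ± 0.095, none of which passed (edgeR adjusted p = 0.268, 0.289 and 0.276). Without T6 the edgeR count was 4 (Efna1, Sema5b, Plxnb1 and Unc5b), against 2.92% of all genes, and the value of Plxnb1 was then -0.27 (edgeR adjusted p = 0.03).

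**Figure D5:**
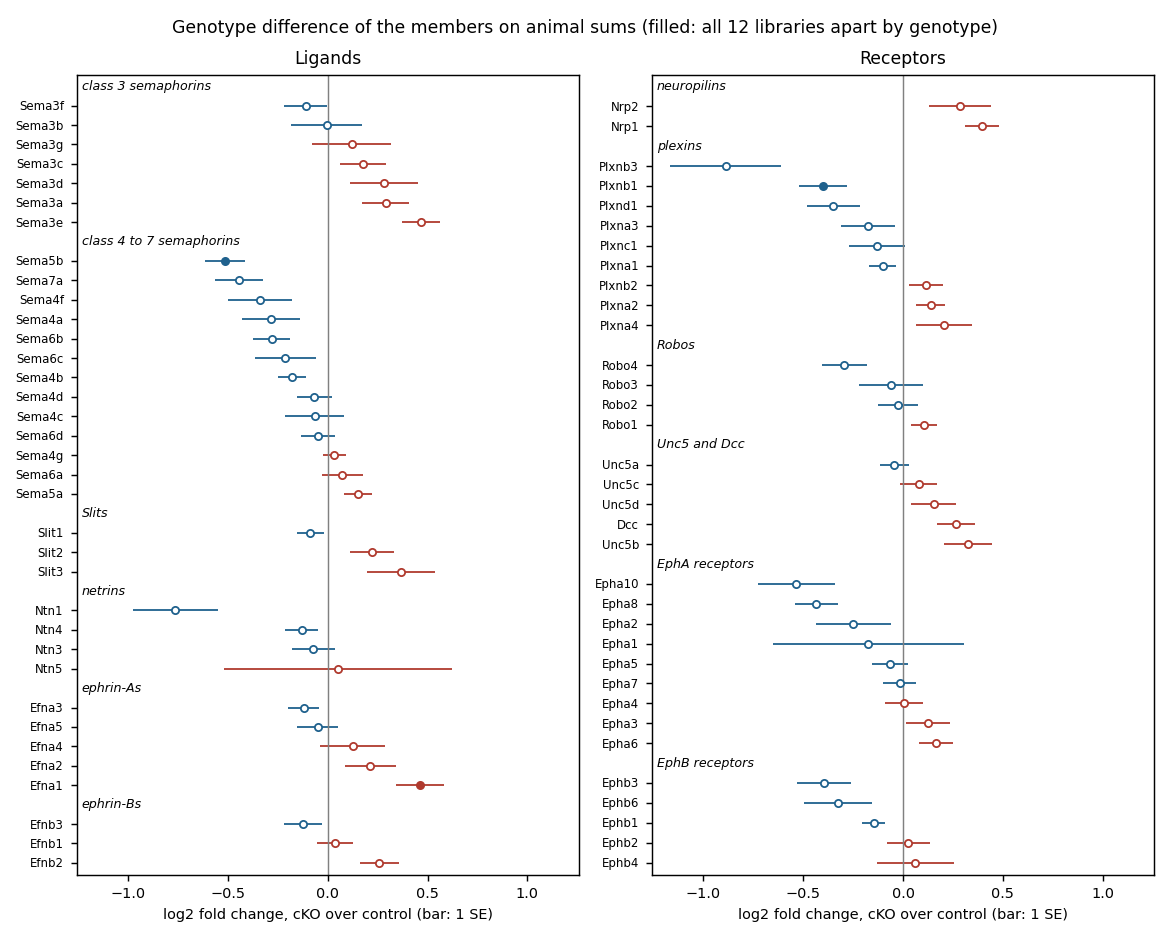
Log2 fold change of 69 guidance genes on counts summed per animal, cKO over control, with bars of 1 SE; ligands left, receptors right, grouped by family, red above 0 and blue below. Filled symbols mark Efna1 (0.46), Sema5b (-0.52) and Plxnb1 (-0.40), whose 6 cKO libraries all lay on 1 side of the 6 control libraries; edgeR called 0 guidance genes here and DESeq2 8.

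Taking libraries singly, all 6 cKO libraries lay on 1 side of all 6 control libraries for 3 of 69 guidance genes (4.35%), against 3.6% of all genes. Efna1 had 3.75, 4.51 and 4.57 CPM in cKO caudal and 5.74, 4.07 and 4.56 CPM in cKO rostral libraries, against 3.63, 3.39 and 3.44 CPM in control caudal and 3.36, 3.39 and 2.73 CPM in control rostral ones. Sema5b and Plxnb1 were lower in all cKO libraries, with 10.5 to 17.8 CPM for Sema5b in cKO and 19.3 to 26.8 CPM in control tissue, and 34.9 to 88.5 CPM for Plxnb1 in cKO and 92.5 to 104 CPM in control tissue. The lowest library of both genes was the cKO rostral one of T6.

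Of the 30 other co-receptors and cues, 0 were called between genotypes on the sums by edgeR, and 5 had an unadjusted p under 0.05. Ptch1 was nearest, at -0.41 ± 0.077 (edgeR adjusted p = 0.106), followed by Cxcr4, a chemokine receptor, at 0.52 ± 0.13 (edgeR adjusted p = 0.179). Of the 45 transducers 0 were called and 4 had an unadjusted p under 0.05. Ngef, an exchange factor that acts downstream of Epha4, was at -0.54 ± 0.098 (edgeR adjusted p = 0.0992) and Rnd1, a plexin-binding GTPase, at -0.45 ± 0.15 (edgeR adjusted p = 0.255).

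Marker lists were compared between genotypes in the same way. Oligodendrocyte lineage markers were lower in value in 9 of 10 on the sums, 3 of them called, and summed to 315 to 470 CPM in the 6 cKO libraries and 479 to 612 CPM in the 6 control libraries. Astrocyte markers were lower in 9 of 10, 2 of them called, with 881 to 2611 CPM in cKO and 2095 to 2622 CPM in control libraries. All 12 striatal markers were lower in value and all 9 choroid plexus markers, 10 meningeal fibroblast markers and 13 mitochondrially encoded genes higher, 0 of them called. Microglia markers were higher in value in 7 of 10, with 0 called, and summed to 108 to 289 CPM in cKO and 135 to 196 CPM in control libraries. Choroid plexus markers summed to 4.81 to 561 CPM in cKO and 6.78 to 221 CPM in control libraries, and mitochondrially encoded genes to 19886 to 91954 CPM in cKO and 15297 to 31819 CPM in control libraries. No gene of these lists was at 0 in a whole group. Their part in the genotype differences of the guidance genes was not tested.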

How the data were processed

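The authors deposited 1 table of gene-level read counts for 12 libraries. Per the submitters' processing notes, STAR 2.7.8a, featureCounts 2.0.3 and the GRCm39 build were used; the annotation release, strand setting and handling of shared reads were not given in sources used here. Between 9.69% and 14.3% of the deposited values per library are fractional. How the fractions arose is not stated; the deposited values were handled as estimated counts and rounded here, although whole counts had been assumed when the tests were chosen.

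Each comparison was fitted on its own libraries with edgeR 4.0.16 (filterByExpr, TMM scaling, robust quasi-likelihood test) in R 4.3.3, with Benjamini-Hochberg adjustment over all genes tested and a threshold of 0.05. DESeq2 1.42.0 and limma 3.58.1 served as alternatives, beside other scalings and filters, a block for the animal, and leaving out each animal. The edgeR procedure was tested on simulated data. CPM and TPM were computed here, TPM with the exon lengths of the table. Depth was 43810458 to 87170315 counts per library, and p-values measure the spread between these samples.

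A shared T number was read as 1 animal, per the labels. The correlation of their deviations from the group means over 21599 genes was 0.35 in T4, 0.363 in T8, 0.392 in T70, -0.0123 in T3, 0.00457 in T6 and 0.541 in T80. No 2 libraries of the same group agreed within counting noise, and pairs across groups were not compared. Genes were named by rule: those called in a comparison, those with the highest level or the smallest p of their family between control pieces or on animal sums, and up to 4 genes of each other pathway list with the smallest p there. Other genes named, such as those called only under an alternative and Robo1, Sema3b, Sema7a, Unc5d and Plxna1 between control pieces, were chosen after their values were seen. The members and all gene lists were chosen with earlier results of these data known.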

Additional observations from a re-analysis of the deposited data

Results flagged for a closer look

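Unc5d, a netrin receptor of cortical neurons, had regional differences of opposite sign in the genotypes. Caudal minus rostral, on the log2 scale, it differed by -0.22, -0.31 and -0.021 in cKO animals T3, T6 and T80 and by 0.39, 0.29 and 0.40 in control animals T4, T8 and T70. The interaction was -0.55 with an unadjusted p of 0.00967 and an adjusted p of 1 by edgeR's quasi-likelihood test with Benjamini-Hochberg adjustment, so it failed the correction.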

How the results depend on the processing

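The count of guidance genes called between control pieces was 23 (12.2% of all genes); it was 27 with DESeq2 (7.18% of all genes), 31 with no filter on low counts (9.05%) and 15 to 23 with 1 control animal left out (5.25% to 8.21%), the lowest being without T8. The shares for DESeq2 and for the fit without a filter are over every gene with a count. They are therefore not directly comparable with shares over the filtered genes. With the animal as a replicate block the counts were 31 between control pieces (15.4% of all genes), 0 between cKO pieces and 0 for the interaction. Leaving out 1 animal gave 0 to 0 between cKO pieces, 0 to 13 between genotypes in rostral tissue, 0 to 1 in caudal tissue, 0 to 4 on animal sums and 0 to 9 for the interaction, the last 4 highest without T6. DESeq2 called 4 in rostral tissue, 2 in caudal tissue and 8 on animal sums, and with no filter on low counts edgeR called 1 in caudal tissue and 3 on animal sums. For these counts without a filter, and for the 1 in caudal tissue without T6, no share of all genes is given. They cannot be read against a background. Leaving out the cKO rostral libraries of T3 and T6, an alternative chosen after seeing the data, gave 11 in rostral tissue and 1 for the interaction. The value of Slit3 between genotypes in caudal tissue ranged from -0.52 without T6 to 0.35 without T3. The cause of these changes was not tested. Of the values recomputed for the genes chosen for this purpose, which are not all 69, 631 kept direction and side of the threshold, 29 passed it, 17 no longer passed and 1 reversed.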
